A study of Arabidopsis thaliana with 8 samples.

Results

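AT2G15880 and AT4G33970 are pollen-specific leucine-rich repeat extensin genes of Arabidopsis thaliana, known as PEX3 and PEX4. Each was chosen by name and read by 1 probe set of the Affymetrix ATH1 array, so that the pair makes up 2 of the 22746 probe sets tested. Both names end in _at without the _s or _x that marks shared probe sets on this array. Both genes are protein coding, AT2G15880 on chromosome 2 and AT4G33970 on chromosome 4 of the reference table.

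RNA came from inflorescences with flowers of stages 9 to 12. The 4 genotypes were ddm1-2, rdr6-15, the double mutant ddm1-2 rdr6-15 and the wild type Col-0, with 2 biological replicates each. Every array received 6 ug of total RNA from tissue pooled over 3 units that the labels do not define. The plants were grown in long days, and the labels name no treatment. DDM1 remodels chromatin and is needed for transposon silencing. RDR6 copies RNA into double strands from which small interfering RNAs are cut. No probe set was listed for either gene (0 of those with 1 locus), so the genotypes could not be checked on the arrays.

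Leucine-rich repeat extensins are cell wall proteins. Their leucine-rich repeats bind small secreted peptides of the RALF family, and their extensin part, rich in serine and proline, anchors them in the wall. The pollen members act in pollen and the growing pollen tube, where with the receptor kinases ANX and BUPS they take part in keeping the tube wall intact during growth. Their transcripts build up late, in maturing pollen, so in whole inflorescences they come from a small share of the tissue.

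Replicate 1 of rdr6-15 stood apart from the other arrays. It correlated at 0.852 to 0.879 with them across probe sets, and 112 probe sets lay over 3 log2 units below, and 66 over 3 above, every other array. Differences given for single genes in rdr6-15 are also given without it, except for a sperm gene.

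Both probe sets gave their highest signal in wild type. AT2G15880 had log2 signals of 3.64 and 2.61 in ddm1-2, 3.73 and 5.25 in rdr6-15, and 3.89 and 3.02 in ddm1-2 rdr6-15, against 5.43 and 6.55 in Col-0. Each of the 6 mutant arrays lay below both Col-0 arrays, and the ddm1-2 and double mutant arrays overlapped, while both rdr6-15 arrays lay above both ddm1-2 arrays. For AT4G33970 the log2 signals were 3.85 and 2.73 in ddm1-2, 2.97 and 4.67 in rdr6-15, and 3.71 and 3.20 in ddm1-2 rdr6-15, against 5.03 and 5.20 in Col-0. Again all 6 mutant arrays lay below both Col-0 arrays, a pattern shown by 8.01% of all probe sets, and the 3 mutant genotypes overlapped one another. In bulk tissue, fewer pollen cells and less transcript per cell cannot be told apart.

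**Figure D1:**
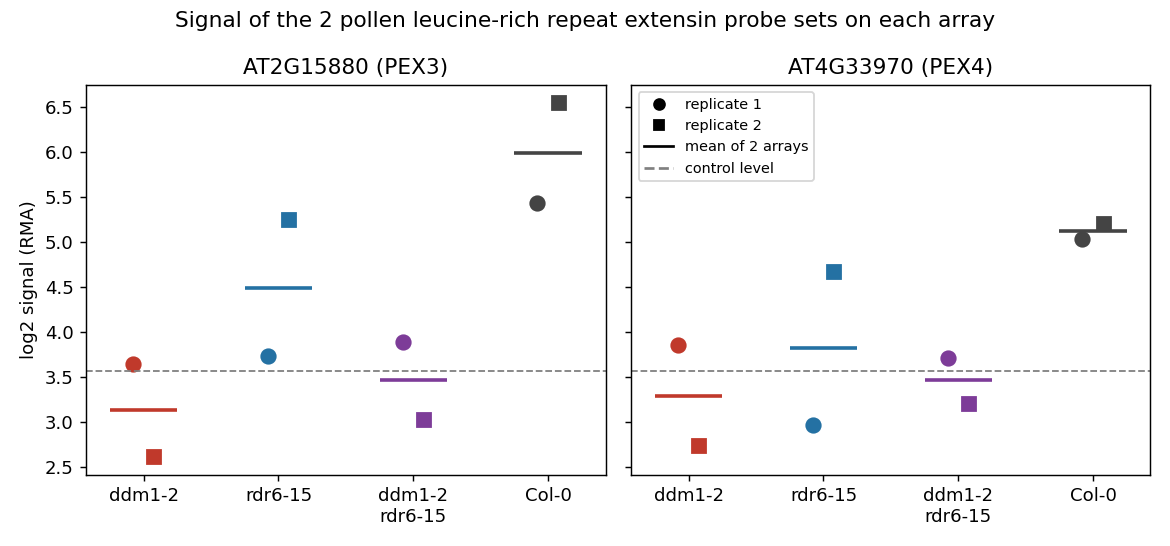
Log2 signal of AT2G15880 (left) and AT4G33970 (right) on each of the 8 arrays, by genotype. Circles are replicate 1, squares replicate 2, short lines the mean of 2 arrays, and the dashed line the control level of 3.56, the highest mean among Bacillus control probe sets. All mutant arrays lie below both Col-0 arrays, and rdr6-15 replicate 2 is the highest mutant array for both genes.

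The mean signal of AT2G15880 was 3.13 ± 0.73 in ddm1-2, 4.49 ± 1.07 in rdr6-15 and 3.46 ± 0.62 in ddm1-2 rdr6-15, against 5.99 ± 0.79 in Col-0 (log2, SD, n = 2 each). From high to low its order was thus Col-0, rdr6-15, the double mutant and ddm1-2. The AT4G33970 means followed the same order, with 3.29 ± 0.79 in ddm1-2, 3.82 ± 1.20 in rdr6-15 and 3.46 ± 0.36 in ddm1-2 rdr6-15, against 5.12 ± 0.12 in Col-0 (log2, SD, n = 2 each). Among the mutants, no 2 neighbours in that order differed beyond the spread of their replicates for either gene.

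Several mutant arrays carried little or no signal for these genes. As a measure of background, called the control level here, the highest mean among 27 probe sets for Bacillus transcripts was taken, chosen after the data were seen. It was 3.56, while the means of all the others were at or below 2.76. AT2G15880 was above 3.56 on 1 of 2 arrays in ddm1-2 and in the double mutant, on both in rdr6-15 and on both in Col-0. AT4G33970 was above it on 1 of 2 arrays in each mutant genotype and on both in Col-0. On 5 of 8 arrays each gene exceeded the highest Bacillus control of that same array. The sizes of the differences are therefore best read as limits where a mutant array was at control level.

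Set against Col-0, ddm1-2 shows what differs when DDM1 is lost and RDR6 is present. The difference was -2.86 for AT2G15880 (log2, SE 0.64, 95% interval -4.40 to -1.33) and -1.83 for AT4G33970 (log2, SE 0.59, 95% interval -3.23 to -0.43). With values under the control level raised to it, AT2G15880 was at least 2.39 and AT4G33970 at least 1.41 log2 units lower in ddm1-2. In the limma fit to all 8 arrays neither passed after Benjamini-Hochberg adjustment over all probe sets (adjusted p = 0.19 and 0.392, unadjusted p = 0.00319 and 0.0177). In the same fit 0.171% of all probe sets were called lower, and only 0.185% lay as far below 0 as AT2G15880 and 0.835% as far as AT4G33970.

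The calls depended on the rdr6-15 arrays, although these do not enter the ddm1-2 and Col-0 means. Without rdr6-15 replicate 1 the same differences passed in limma, with an adjusted p of 0.00892 for AT2G15880 (SE 0.45) and of 0.0178 for AT4G33970 (SE 0.33), and the same values were obtained without rdr6-15 replicate 2 in its place. Without replicate 1, 2.62% of all probe sets were called lower in ddm1-2. With only the ddm1-2 and Col-0 arrays fitted, both passed as well (adjusted p = 0.00212 and 0.00772). The rdr6-15 replicates, which enter the pooled estimate of spread, were 1.52 log2 units apart for AT2G15880 and 1.70 for AT4G33970. Leaving out either one removes that genotype from the estimate, so the 2 omissions give the same values by construction.

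The double mutant compared with Col-0 shows the loss of both DDM1 and RDR6. AT2G15880 differed by -2.53 (log2, SE 0.64, 95% interval -4.07 to -1.0) and AT4G33970 by -1.66 (log2, SE 0.59, 95% interval -3.06 to -0.26). At control level the limits were at least 2.26 and 1.48 log2 units lower in the double mutant. Neither passed in limma on all arrays (adjusted p = 0.295 and 0.54), with 0.101% of probe sets called lower. Without rdr6-15 replicate 1 both passed (adjusted p = 0.0163 and 0.0284), where 2.86% of probe sets were called lower. All 3 comparisons with Col-0 share its arrays and are not independent.

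The comparison of rdr6-15 with Col-0, for the loss of RDR6 alone, rested on unlike replicates. The difference was -1.50 for AT2G15880 (log2, SE 0.64, adjusted p = 0.511 in limma) and -1.30 for AT4G33970 (log2, SE 0.59, adjusted p = 0.525), with 0.0044% of probe sets called lower. Replicate 2 lay close below Col-0, with 5.25 against 5.43 in the lower Col-0 array for AT2G15880 and 4.67 against 5.03 for AT4G33970. Without replicate 1 the differences were -0.74 and -0.45, and neither passed. Without replicate 2, which leaves replicate 1 alone and takes its spread from the other genotypes, they were -2.26 and -2.15 and both passed (adjusted p = 0.0167 and 0.00494), where 12.3% of all probe sets were called lower.

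Signal of plastid-encoded genes moved with the array that stands apart. The median of their 69 probe sets, a list added after the data were seen, was 7.43 on rdr6-15 replicate 1 and 5.63 on rdr6-15 replicate 2. It was 6.01 and 5.98 in ddm1-2 and 5.75 and 5.40 in the double mutant, against 5.31 and 5.42 in Col-0. The part of this in the extensin values was not tested.

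Averaged over the 3 mutant genotypes, AT2G15880 differed from Col-0 by -2.30 (log2, SE 0.53, 95% interval -3.55 to -1.05) and AT4G33970 by -1.60 (log2, SE 0.48, 95% interval -2.74 to -0.46). Neither passed in limma (adjusted p = 0.161 and 0.292), with 0.259% of probe sets called lower. Without rdr6-15 replicate 1 they differed by -2.05 and -1.31 and both passed (adjusted p = 0.0192 and 0.0357, with 3.06% called lower).

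**Figure D2:**
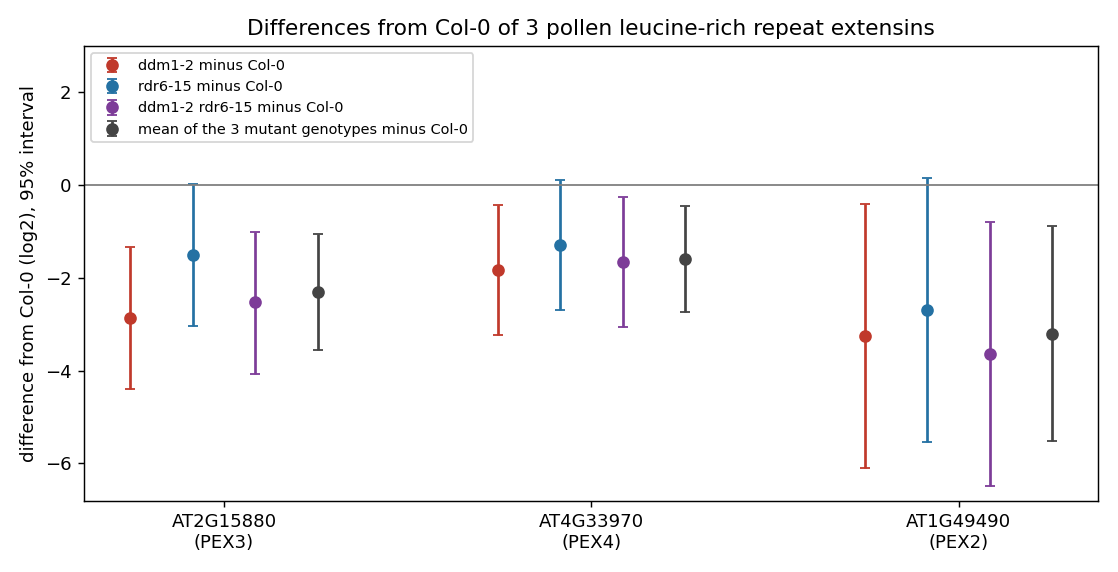
Difference from Col-0 in log2 signal (points) with 95% intervals from limma (bars) for AT2G15880, AT4G33970 and the related pollen gene AT1G49490. The intervals of ddm1-2 and of the double mutant lie below 0 for all 3 genes, while those of rdr6-15 reach above 0.

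Between the mutant genotypes no difference of either gene passed. The double mutant minus ddm1-2, which asks what RDR6 loss adds once DDM1 is lost, was 0.33 for AT2G15880 (95% interval -1.20 to 1.86) and 0.17 for AT4G33970 (95% interval -1.23 to 1.57), both in log2. The adjusted p was 1 for both in limma, with 0.0528% of probe sets called lower and 0.0044% higher. The double mutant minus rdr6-15 was -1.03 for AT2G15880 (95% interval -2.57 to 0.50, adjusted p = 0.811) and -0.36 for AT4G33970 (95% interval -1.76 to 1.04, adjusted p = 0.911), and without rdr6-15 replicate 1 it was -1.79 and -1.21. In that comparison 0% of probe sets were called lower and 0.163% higher in limma, and 2.46% were lower at an unadjusted p under 0.05. These intervals are wide enough to hold a change of 1 log2 unit in either direction in 3 of the 4 cases, and for AT2G15880 against rdr6-15 a difference of that size below 0.

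The interaction compares the effect of ddm1-2 between plants lacking RDR6 and plants with it. With the ddm1-2 and double mutant means of both genes under the control level, its size could not be measured well. The interaction was 1.83 for AT2G15880 (log2, SE 0.91, adjusted p = 0.81 in limma) and 1.47 for AT4G33970 (log2, SE 0.83, adjusted p = 0.82). Neither passed, and the unadjusted p in limma was 0.0858 and 0.122. Of all probe sets 0% were called higher, and 6.29% had an unadjusted p under 0.05 in either direction. Leaving out rdr6-15 replicate 2 gave 2.59 and 2.32, both past the threshold (adjusted p = 0.037 and 0.0165), where 8.27% of all probe sets were called higher, and it was the 1 array whose removal did so. The interaction without replicate 1 was 1.07 and 0.62, and neither passed.

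The difference from Col-0 was larger for AT2G15880 than for AT4G33970 in ddm1-2 and in the double mutant. The gap between their log2 signals, AT2G15880 minus AT4G33970, has meaning only in how it changes between arrays, since 2 probe sets do not share a scale. It was -0.20 and -0.12 in ddm1-2, 0.77 and 0.58 in rdr6-15, and 0.18 and -0.18 in ddm1-2 rdr6-15, against 0.40 and 1.35 in Col-0. The gap was smaller on both ddm1-2 arrays and on both double mutant arrays than on either Col-0 array, while rdr6-15 overlapped with Col-0. An exact two-sided permutation test gave p = 0.333 for ddm1-2 and for the double mutant, the smallest that 2 arrays against 2 allow, and p = 1 for rdr6-15. AT4G33970 was at or under the control level on 1 array of each mutant genotype, which limits the difference that could be seen.

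Replicates of a genotype moved together in the 2 genes. In ddm1-2 replicate 1 exceeded replicate 2 by 1.03 for AT2G15880 and 1.12 for AT4G33970, and in the double mutant by 0.87 and 0.51, all in log2. In rdr6-15 replicate 1 minus replicate 2 was -1.52 and -1.70, and in Col-0 it was -1.12 and -0.17. The array with the higher signal was thus the same for both genes in every genotype.

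AT1G49490 (PEX2), another pollen leucine-rich repeat extensin gene, also had its highest signal in Col-0. It had log2 signals of 4.76 and 4.07 in ddm1-2, 3.23 and 6.72 in rdr6-15, and 5.27 and 2.78 in ddm1-2 rdr6-15, against 7.35 and 8.0 in Col-0. All its mutant arrays lay below both Col-0 arrays, and its rdr6-15 replicates were 3.49 log2 units apart. Its differences from Col-0 were -3.26 in ddm1-2 (SE 1.20), -2.70 in rdr6-15 (SE 1.20) and -3.65 in ddm1-2 rdr6-15 (SE 1.20), all in log2, against medians over all probe sets of -0.01, 0.02 and 0.02.

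With all arrays none of these passed for AT1G49490 in limma (adjusted p = 0.471, 0.52 and 0.48). At an unadjusted p under 0.05 AT2G15880, AT4G33970 and AT1G49490 were all lower in ddm1-2 (4.2% of all probe sets were) and in the double mutant (4.53%), and 0 of these 3 in rdr6-15 (5.29%). Without rdr6-15 replicate 1, AT1G49490 passed in ddm1-2 (adjusted p = 0.028 in limma) and in the double mutant (adjusted p = 0.018) and did not pass in rdr6-15, where its difference was -0.96 (adjusted p = 0.745).

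The other leucine-rich repeat extensins are known mainly from tissues other than pollen. Of 7 listed loci 4 had a probe set of their own gene. AT3G24480 (LRX4) differed from Col-0 by 0.21 in ddm1-2, 0.53 in rdr6-15 and 0.33 in ddm1-2 rdr6-15, and AT4G18670 (LRX5) by 0.14, 0.55 and 0.04. Their rdr6-15 differences without replicate 1 were 0.22 and 1.03. AT3G22800 (LRX6) and AT5G25550 (LRX7) had means at control level in all 4 genotypes, so changes below that level could not have been detected. AT5G25550 differed by -0.40, -0.38 (-0.26 without rdr6-15 replicate 1) and -0.45, with 5 of 6 mutant arrays below both Col-0 arrays, and AT3G22800 by 0.25, 0.23 (0.27 without that array) and 0.11, with 0 of 6. The median difference of the 4 was 0.18 in ddm1-2, 0.38 in rdr6-15 and 0.07 in ddm1-2 rdr6-15. In limma 0 of 4 were called in either direction, with 0 at an unadjusted p under 0.05. Only 131, 2 and 71 of all 22746 probe sets were called in these comparisons, so 0 of 4 says little. At an unadjusted p under 0.05, 4.2%, 5.29% and 4.53% of all probe sets were lower.

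Among the receptors of the RALF pathway, AT4G39110 (BUPS1) had means above control level in all genotypes. It had log2 signals of 4.50 and 4.01 in ddm1-2, 3.42 and 5.91 in rdr6-15, and 4.36 and 3.31 in ddm1-2 rdr6-15, against 6.42 and 6.74 in Col-0. Its differences from Col-0 were -2.33, -1.92 and -2.74, none of which passed in limma (adjusted p = 0.401, 0.486 and 0.345), and without rdr6-15 replicate 1 the rdr6-15 difference was -0.67. ANX2 (AT5G28680) differed by -1.55 in ddm1-2, -1.15 in rdr6-15 and -1.68 in ddm1-2 rdr6-15, AT2G21480 (BUPS2) by -0.97, -0.86 and -1.09, and ANX1 (AT3G04690) by -0.77, -0.67 and -0.76. All mutant means of ANX1, ANX2 and AT2G21480 were at control level, so these are limits. The rdr6-15 differences without replicate 1 were -0.65 for ANX2, -0.53 for AT2G21480 and -0.67 for ANX1. Of 11 listed pathway loci 4 were matched, all of them receptors, and the peptides RALF4 and RALF19 were not among them. Without rdr6-15 replicate 1 some of these receptors were called lower in ddm1-2 and in the double mutant, as the pair was. More of all probe sets were called in that fit too. With all arrays limma called 0 of 4, where 0.171%, 0.0044% and 0.101% of all probe sets were called lower. At an unadjusted p under 0.05, 4, 3 and 4 were lower in ddm1-2, rdr6-15 and the double mutant. The shares of all probe sets were 4.2%, 5.29% and 4.53%.

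Pectin-modifying enzymes of late pollen, which soften or stiffen the tube wall, also had low mutant signals. The 8 of 16 listed loci with a probe set had median differences of -2.72 in ddm1-2, -2.74 in rdr6-15 and -3.34 in ddm1-2 rdr6-15, and all 8 lay below 0 in each. The rdr6-15 median was -1.30 without rdr6-15 replicate 1 and -4.04 without replicate 2. Beside AT2G02720 the 8 were AT1G14420, AT2G26450, AT3G01270, AT3G06830, AT4G33230, AT5G07430 and AT5G15110, and their differences ran from -3.15 to -0.64 in ddm1-2, from -4.01 to -0.28 in rdr6-15 and from -3.99 to -0.45 in ddm1-2 rdr6-15. Without replicate 1 the rdr6-15 differences at these ends were -1.28 for AT3G01270 and -0.15 for AT4G33230. AT4G33230 had means at control level in all 4 genotypes, so changes below that level could not have been detected. Mutant means of AT3G06830, and double mutant means of AT2G02720, AT2G26450 and AT5G15110, were also at control level. The sizes of these differences were therefore not measured well. The pectate lyase gene AT2G02720 differed by -2.73, -2.18 and -2.95 with adjusted p-values in limma of 0.14, 0.339 and 0.144. Its rdr6-15 difference was -1.38 without replicate 1. Without rdr6-15 replicate 1 some of these genes were called lower in ddm1-2 and in the double mutant, as the pair was. More of all probe sets were called in that fit too. With all arrays limma called 0 of 8, where 0.171%, 0.0044% and 0.101% of all probe sets were called lower. At an unadjusted p under 0.05, 6, 5 and 5 were lower in ddm1-2, rdr6-15 and the double mutant. The shares of all probe sets were 4.2%, 5.29% and 4.53%.

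Of the transcription factors of late pollen, 5 of 8 listed loci were matched and 1 passed, in ddm1-2 and in the double mutant. Of all probe sets 0.171% and 0.101% were called lower there. At an unadjusted p under 0.05 in limma, 3, 2 and 2 of the 5 were lower in ddm1-2, rdr6-15 and the double mutant. Among all probe sets 4.2%, 5.29% and 4.53% were. AGL66 (AT1G77980), a MADS-box factor of maturing pollen, had log2 signals of 2.71 and 2.77 in ddm1-2, 3.28 and 3.20 in rdr6-15, and 2.95 and 2.65 in ddm1-2 rdr6-15, against 4.08 and 4.45 in Col-0. It fell in ddm1-2, with a difference of -1.52 (SE 0.19, adjusted p = 0.029 in limma), and in the double mutant, with -1.46 (SE 0.19, adjusted p = 0.0493). Its mutant means were under the control level, so the sizes of these differences were not measured well. In rdr6-15 the difference was -1.02 (adjusted p = 0.264), with -1.07 without replicate 1 (adjusted p = 0.138) and -0.98 without replicate 2 (adjusted p = 0.014). AGL65 (AT1G18750), another MADS-box gene, differed by -0.55 in ddm1-2, by -0.39 in rdr6-15 (-0.48 without replicate 1) and by -0.36 in the double, and none passed in limma (adjusted p = 0.46, 0.56 and 0.8). Over 15 alternatives the ddm1-2 call held in 8, with adjusted p-values of 0.00117 to 0.289, and the double mutant call in 7, with 0.00431 to 0.45. AGL30, AGL94 and AGL104 were at control level in every genotype, and the median of the 5 was -0.55 in ddm1-2, -0.39 in rdr6-15 (-0.41 without replicate 1) and -0.36 in ddm1-2 rdr6-15.

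**Figure D3:**
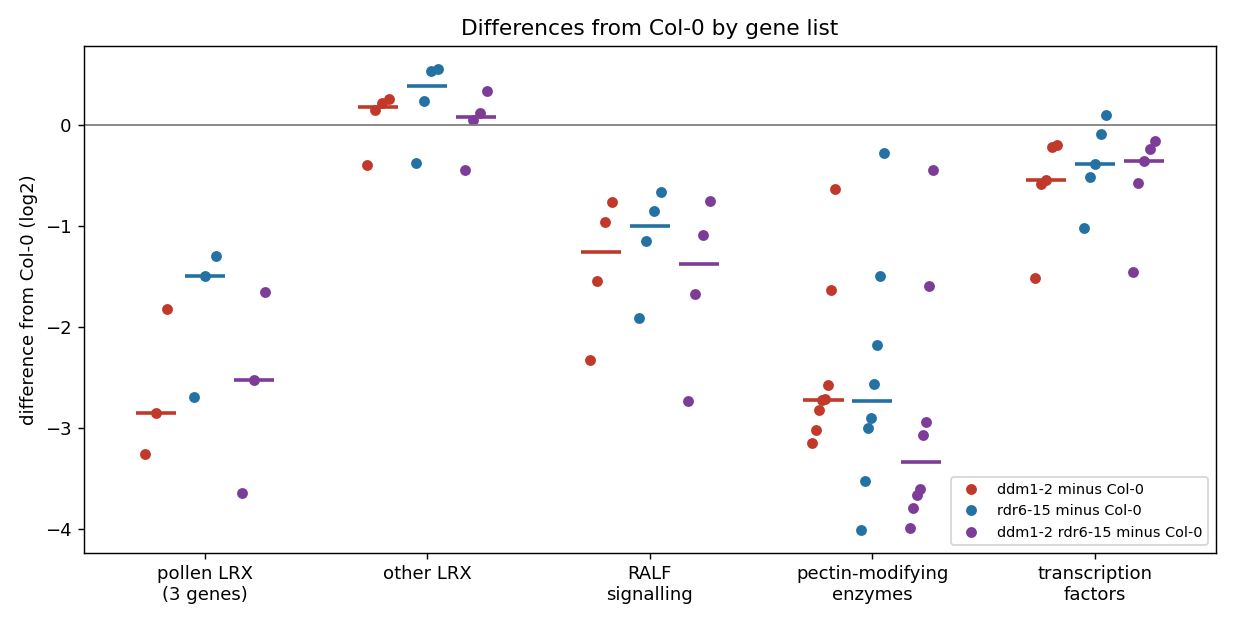
Difference from Col-0 in log2 signal for each matched probe set (points) and the median (lines) of 5 gene lists, for ddm1-2, rdr6-15 and the double mutant. The 3 pollen extensins and the pectin-modifying enzymes lie below 0 throughout, while the medians of the other leucine-rich repeat extensins are 0.07 to 0.38.

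Markers of other cells could be followed only in part. The tapetum and exine list had 2 of 15 loci matched, with medians per array of 3.42 and 4.30 in ddm1-2, 3.20 and 4.52 in rdr6-15, and 4.08 and 3.85 in ddm1-2 rdr6-15, against 3.45 and 3.23 in Col-0. The median difference of these 2 anther genes from Col-0 was 0.52, 0.52 and 0.63. MGH3 (AT1G19890), a histone gene of sperm cells and the 1 of 6 sperm loci matched, was at control level in every genotype. Its signals were 2.86 and 2.77 in ddm1-2, 2.84 and 2.83 in rdr6-15, and 3.13 and 2.87 in ddm1-2 rdr6-15, against 3.34 and 3.41 in Col-0. The MGH3 differences of -0.56, -0.54 and -0.38 did not pass in limma (adjusted p = 0.326, 0.402 and 0.654, unadjusted p = 0.0108, 0.0127 and 0.054), and all 6 mutant arrays lay below both Col-0 arrays. Their part in the values of the pair was not tested. Of the floral organ identity genes 0 of 9 and of the leaf photosynthesis genes 0 of 14 were matched, so the labelled tissue could not be checked on them.

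The genes most like the pair were sought by profile. Each probe set was set to its own mean over the 8 arrays, and the root mean square (RMS) difference from the average profile of AT2G15880 and AT4G33970 was taken in log2 units. This measure is a description, over 8 arrays that share their tissue and normalization. The profiles of AT2G15880 and AT4G33970 themselves lay 0.51 apart. The 10 nearest probe sets with a single listed gene had RMS differences of 0.29 to 0.36, against a median of 1.09 over all other probe sets. The nearest was AT3G20530, with log2 signals of 3.95 and 3.37 in ddm1-2, 3.31 and 4.93 in rdr6-15, and 4.10 and 3.03 in ddm1-2 rdr6-15, against 5.92 and 6.26 in Col-0.

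After it came AT1G75870 and AT1G76370, then SP1L4 (AT5G15600), a SPIRAL1-like gene whose family acts on microtubules, with 0.32. AT1G66210, AT4G27790 and AT3G20300 followed, then PIPK11 (AT1G01460), a phosphatidylinositol phosphate kinase gene, with 0.35, and last AT1G19500 and AT1G01310. In all 10 every mutant array lay below both Col-0 arrays, which their choice by likeness to the pair favours. In all, 113 probe sets came within 0.5 log2 units of the pair's average, 60 of them with a single listed locus. The related gene AT1G49490 was farther away, at 0.88, and ranked 981 among the other probe sets. It had a wider swing between arrays, over a range of 5.22 log2 units, than AT2G15880 with 3.94 and AT4G33970 with 2.47.

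**Figure D4:**
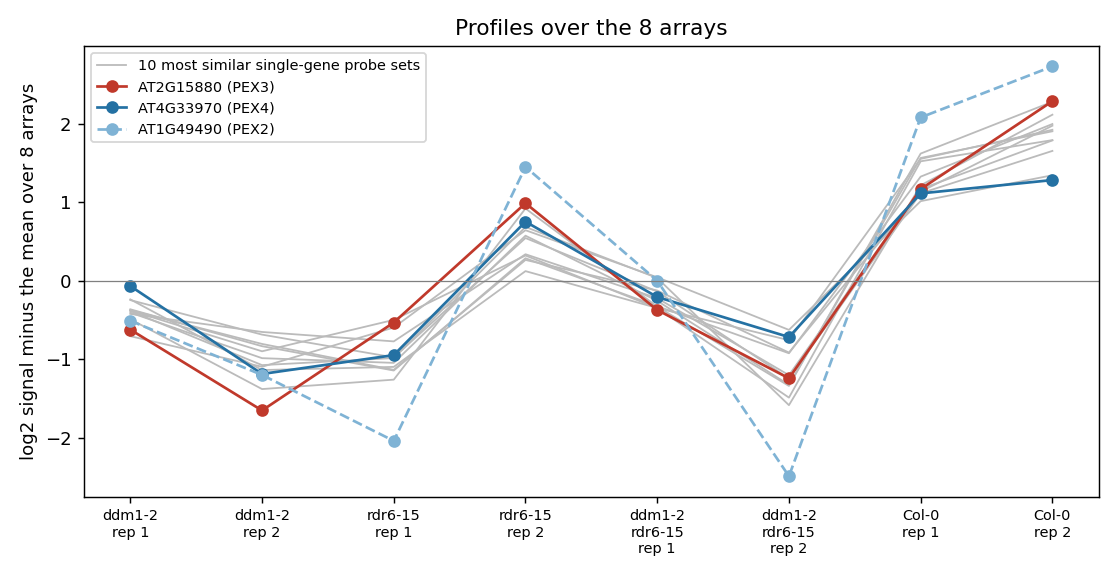
Log2 signal minus each gene's own mean over 8 arrays, by array. Solid lines are AT2G15880 and AT4G33970, the dashed line AT1G49490, and grey lines the 10 most similar probe sets with a single gene. All lines peak in Col-0, which the choice by likeness favours for the grey lines. AT1G49490 swings most, over 5.22 log2 units.

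Loci next to the 2 genes on the chromosome were not called. Of the 20 loci within 5 places on either side, chosen by position after the values of the pair were known, 7 had a probe set with a single listed gene. Over the 3 mutant genotypes and their mean, 0 calls were made among them in limma. Of all 22746 probe sets only 131, 2, 71 and 107 were called in ddm1-2, rdr6-15, the double mutant and their mean. The 0 calls therefore say little about these loci. At an unadjusted p under 0.05 were 4 of the 28 tests, which overlap since the mean shares its arrays with the 3 genotypes. Among all probe sets 4.2%, 5.29% and 4.53% were lower at that limit in the 3 genotypes. The 4 tests were counted in either direction, so these shares are not a like measure. Next to AT2G15880, the differences in ddm1-2 were 0.52 for AT2G15860, 0.01 for the pseudogene AT2G15870 and -0.32 for AT2G15900. Next to AT4G33970 they were -0.45 for AT4G33940, -0.46 for AT4G33960, 0.01 for AT4G33980 and 0.00 for AT4G33985. AT4G33940 was the 1 of the 7 with every mutant array below both Col-0 arrays, a pattern shown by 8.01% of all probe sets.

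**Figure D5:**
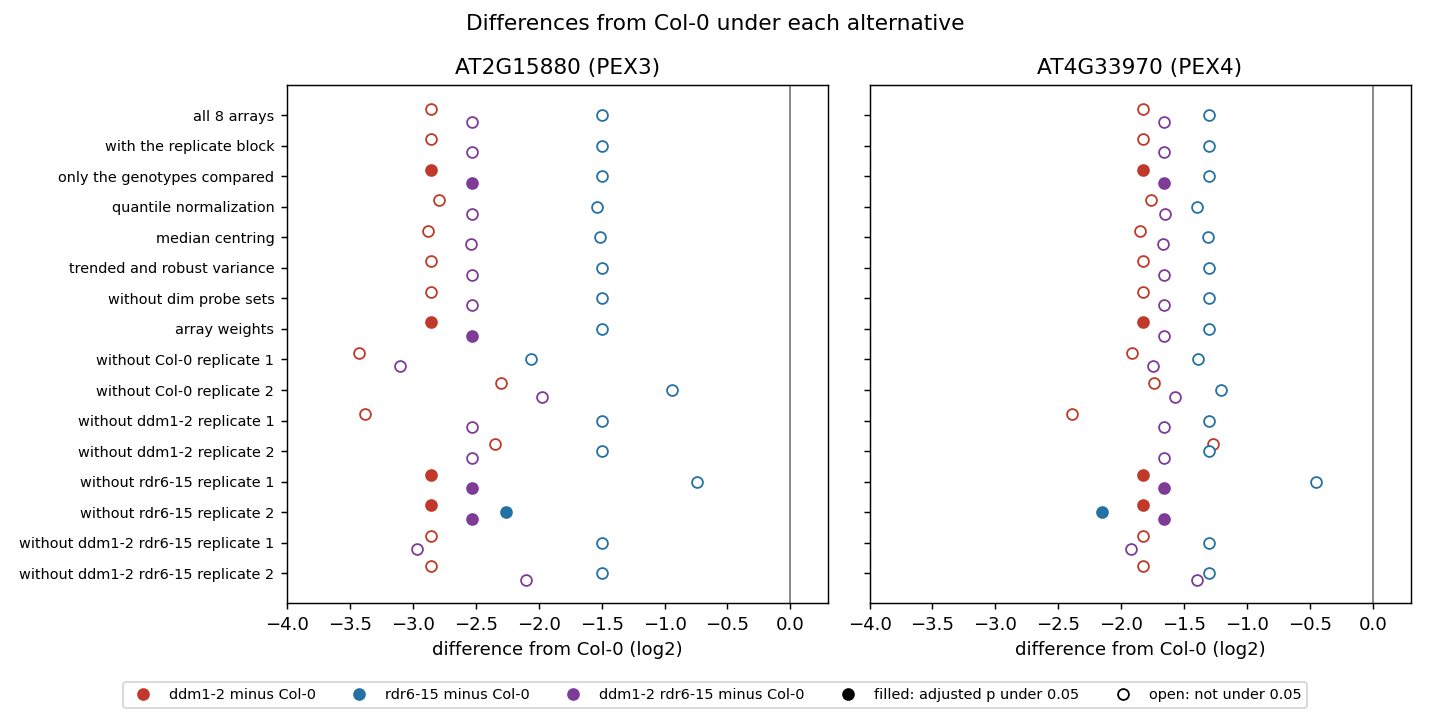
Difference from Col-0 in log2 signal of AT2G15880 (left) and AT4G33970 (right) with all 8 arrays and under each alternative. Filled points have an adjusted p under 0.05 in limma. The differences stay below 0 throughout, and leaving out rdr6-15 replicate 1 brings rdr6-15 to -0.74 and -0.45.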

How the data were processed

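RMA was run by the authors per the submitters' processing notes, which name no version, and the deposited table holds its log2 signal for each probe set and array. No scaling was added. Of 22810 probe sets, 64 controls were left out. Genes came from the platform annotation through gene IDs to the TAIR10.1 reference table, by name and order only, giving 1 locus for 13436 probe sets. One linear model with 4 genotype means, over the 8 arrays together, used limma 3.58.1 (lmFit, eBayes; R 4.3.3), with 4 residual and 2.82 prior degrees of freedom. P-values are two-sided, adjusted by Benjamini-Hochberg over 22746 probe sets, threshold 0.05. The fit was tested on simulated data. The number of arrays limits the precision. The labels call the replicates biological without saying how plants were divided, so p-values measure the spread between these samples.

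Genes named were the pair, all matched members of 7 lists, and the 10 nearest profiles. One gene of these lists is not reported here. Of the 66 other listed loci 24 were matched, and 0 of 11 pollen wall glycoprotein and extensin-like kinase loci and 0 of 10 pollen tube channel, transporter and receptor kinase loci. Members, lists and tests were chosen with earlier results of these data known. Alternatives were quantile normalization, median centring, a trended and robust variance, array weights, a replicate block, a fit to the compared genotypes alone, omission of dim probe sets and omission of each array in turn.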

Additional observations from a re-analysis of the deposited data

How the results depend on the processing

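All differences of both genes from Col-0 stayed below 0 under every alternative, and none was called in the fit to all 8 arrays with equal weights. Fitting only the genotypes compared kept the values and made 4 of them pass in limma: ddm1-2 at -2.86 and -1.83, and the double mutant at -2.53 and -1.66, for AT2G15880 and AT4G33970. Array weights made the same values pass (adjusted p = 0.0201 and 0.048 for ddm1-2, 0.0346 for the double mutant), except for the double mutant in AT4G33970, and also the mean of the mutants in AT2G15880 (-2.30, adjusted p = 0.0428). Leaving out 1 array moved ddm1-2 between -3.43 and -2.30 for AT2G15880 and between -2.39 and -1.27 for AT4G33970. It moved rdr6-15 between -2.26 and -0.74 and between -2.15 and -0.45, the double mutant between -3.10 and -1.97 and between -1.92 and -1.40, and the mutant mean between -2.86 and -1.74 and between -1.88 and -1.31. The double mutant minus ddm1-2 ranged from -0.19 to 0.85 and from -0.39 to 0.73, turning sign without ddm1-2 replicate 2 (-0.19 and -0.39) or without replicate 1 of the double (-0.11 and -0.09). The double mutant minus rdr6-15 ranged from -1.79 to -0.28 and from -1.21 to 0.49, the last without rdr6-15 replicate 2. The interaction ranged from 1.07 to 2.59 and from 0.62 to 2.32. A genotype left with 1 array is assumed to vary like the others. It adds nothing to the estimate of spread, so omitting either rdr6-15 array must give the same ddm1-2 and double mutant tests.

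The ddm1-2 and double mutant calls were made without either rdr6-15 array, and not without any other. Over all probe sets, 131 were called in ddm1-2 against Col-0, down to 31 if Col-0 replicate 1 was omitted and up to 1084 if either rdr6-15 array was, and 1313 with only these genotypes fitted. In the double mutant 71 were called, down to 22 if Col-0 replicate 2 was omitted and up to 884 if either rdr6-15 array was, and 705 with only these genotypes. With the replicate number as a block the differences stayed at -2.86 and -1.83 in ddm1-2, and 90 and 39 probe sets were called in ddm1-2 and in the double mutant. The labels do not say whether replicate numbers pair the arrays. Deviations of same-numbered arrays correlated at -0.06 to 0.422 between genotypes, with 0.422 between ddm1-2 and the double mutant. A shared replicate component between those 2 genotypes was not tested further. Signal near the level of the Bacillus controls limits the size of every difference.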
